A study of Mus musculus with 14 samples.

Results

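The transcripts of 8 enzymes of cholesterol synthesis, Hmgcs1, Mvk, Mvd, Idi1, Fdps, Fdft1, Sqle and Lss, were followed through the normal and neoplastic mouse intestine. They were chosen as the non-control probes that carried 1 of these gene names on a one-color expression array, which gave 10 probes for the 8 enzymes among 36161 gene names. Samples of 5 groups were hybridized on 14 arrays. Whole small intestine of C57BL/6J mice (3 arrays, different adult wild-type mice in the study's sample table) and whole colon, which the labels also assign to C57BL/6J (3 arrays, of which the sample table lists 1 under an APCmin/+ mouse), were the normal tissues. Macroscopic adenomas (3 arrays) and non-tumor tissue adjacent to adenomas (2 arrays) came from APCmin/+ mice, which carry a germline truncating allele of the tumor suppressor Apc on a C57BL/6J background, and the sample table places all of these pieces in 1 mouse. The last group was CT26 (3 arrays), an established mouse colon carcinoma cell line listed there as BALB/c. Strain, culture, the mix of cell types and malignancy therefore cannot be told apart in its comparisons with whole tissue. The labels do not say that the CT26 arrays came from separate cultures, and the adenoma and adjacent pieces share 1 mouse, so the p-values below measure the spread between these samples, which may be partly technical. Where adenomas are compared with small intestine, genotype, animal and tumor cannot be told apart.

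Cholesterol is built from acetyl units. Hmgcs1 makes hydroxymethylglutaryl-CoA, Mvk and Mvd act on mevalonate to give isopentenyl diphosphate, Idi1 isomerizes that building block, and Fdps joins the units into farnesyl diphosphate, the branch point from which ubiquinone, dolichol and prenyl groups are also made. Fdft1 (squalene synthase) commits farnesyl diphosphate to sterols, Sqle adds the epoxide in an oxygen-dependent step, and Lss closes the rings to lanosterol. Transcription of the whole route is known to be driven by the sterol-sensing factor encoded by Srebf2, together with NF-Y and Sp1, and it rises when membranes run short of cholesterol. In the intestine the epithelium both makes cholesterol and takes it up from the lumen through Npc1l1.

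Promoter sequence from RefSeq (GRCm38.p6) was matched by gene symbol for 5 of the 8 enzymes, Hmgcs1, Mvk, Mvd, Idi1 and Lss, and was searched over the 250 bases before the annotated start. The sterol regulatory element TCACNCCAC was found on either strand in 1 of these 5 promoters, that of Hmgcs1, and in 1.05% of 32851 promoters of the same length. The NF-Y box CCAAT was present in all 5 and in 33.8% of all promoters. The GC box GGGCGG, the site type bound by Sp1, was likewise present in all 5, against 32.7%. These counts describe letters in a window and no binding was measured. The promoters of 3 genes are shown because of their mean levels in CT26 cells. CT26 had the lowest mean of the 5 groups for Hmgcs1 and Idi1 and the highest for Lss. The difference of Lss from colon was not called, and no link between motifs and levels was tested. The 3 promoters lie at chr13:119690101-119690350, chr13:8885356-8885605 and chr10:76531355-76531604, all on the plus strand. Capitals mark the matches to the 3 motifs on either strand, and the motif matches did not overlap each other.
Hmgcs1: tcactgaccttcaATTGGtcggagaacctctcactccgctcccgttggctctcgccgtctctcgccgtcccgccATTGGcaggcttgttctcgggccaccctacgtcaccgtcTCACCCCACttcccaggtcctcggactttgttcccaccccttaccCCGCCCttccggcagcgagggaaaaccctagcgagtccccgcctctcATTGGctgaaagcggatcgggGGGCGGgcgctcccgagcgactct
Idi1: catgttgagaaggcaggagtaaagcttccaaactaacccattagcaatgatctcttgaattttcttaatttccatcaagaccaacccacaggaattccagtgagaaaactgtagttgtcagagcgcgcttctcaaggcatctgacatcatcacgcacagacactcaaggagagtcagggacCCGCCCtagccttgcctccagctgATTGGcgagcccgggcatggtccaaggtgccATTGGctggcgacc
Lss: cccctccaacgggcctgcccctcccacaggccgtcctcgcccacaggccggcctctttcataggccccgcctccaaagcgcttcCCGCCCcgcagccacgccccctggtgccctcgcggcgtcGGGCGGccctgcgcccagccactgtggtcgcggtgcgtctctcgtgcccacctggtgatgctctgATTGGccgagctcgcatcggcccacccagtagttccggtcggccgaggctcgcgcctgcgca
In the promoter of Hmgcs1 the sterol regulatory element began 137 bases before the start, and the same window held 3 NF-Y boxes and 2 GC boxes. That of Idi1 held 2 NF-Y boxes and 1 GC box, and that of Lss held 1 NF-Y box and 2 GC boxes.

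Signals are given as the log2 of the processed spot intensity minus the log2 75th percentile of the same array, so that a value of 0 equals that percentile. Between 46.9% and 58.2% of probes were well above background per array, and the probe read for each enzyme (the brighter of the pair for Mvk and Fdft1) was well above background and unsaturated on all 14 arrays. Levels of different probes are not comparable with each other, and each enzyme is therefore compared only with itself. The labels were checked against cell type markers. Over 10 small intestine enterocyte markers the median signal was 6.59 to 8.81 in small intestine, -1.21 and -0.67 on the first and second colon arrays but 6.4 on the third, whose median over 8 colonocyte markers was 2.32 against 4.34 and 4.73. CT26 cells had 3 to 4 of 8 epithelium markers above background, with Epcam, Cdh1, Krt19 and Vil1 below background on all 3 arrays, and their median over 10 cell division genes was 4.95 to 5.22 against 1.01 to 2.48 in small intestine and colon. The arrays came from 2 slides, each of which held samples of all 5 groups. In whole tissue, fewer cells of a type and less RNA per cell cannot be told apart.

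In small intestine, CT26 cells and adjacent tissue, all 8 enzymes had their highest signal of the group on the same array. Colon and adenomas had no such array. In small intestine, replicate 1 lay above both other arrays for 8 of 8 enzymes, by 1.26 to 2.47 on the log2 scale. A gap of at least 1.2 of that kind was found in 0.742% of the 16028 genes well above background on all arrays. In CT26 cells, all 8 enzymes took the same order, with replicate 2 highest and replicate 1 lowest, and the median difference between these 2 arrays was 2.5-fold. For all genes together the same 2 arrays differed by a median of 0.19 in the opposite direction. In adjacent tissue, replicate 1 exceeded replicate 2 for 8 of 8 enzymes, with a median of 0.38, and for 54.4% of the 16028 genes. In colon, replicate 1 exceeded replicate 3 for 3 of 8 enzymes, and replicate 2 exceeded replicate 3 for 2 of 8. Among the 3 adenomas no enzyme ranged over more than 0.29. The plot of deviations from the group means shows this pattern.

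**Figure D1:**
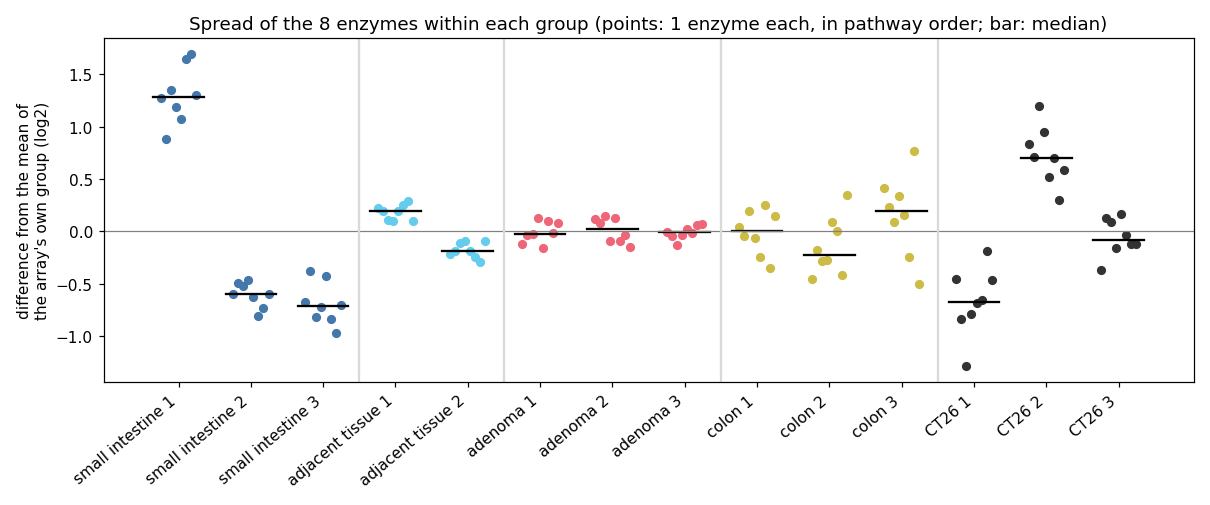
Difference of each enzyme from the mean of its own group (log2, y axis) on each of the 14 arrays (x axis), with 1 point per enzyme and a bar at the median. Small intestine replicate 1 sits at a median of 1.29 and CT26 replicate 2 at 0.71, CT26 replicate 1 lies at -0.67, and the adenomas lie close to 0.

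Enzymes of the mevalonate arm gave the following signals. Hmgcs1 read 6.26, 4.4 and 4.32 in small intestine, 5.38 and 4.95 in adjacent tissue, 5.19, 5.43 and 5.31 in adenomas, 6.01, 5.51 and 6.38 in colon, and 3.47, 4.76 and 3.56 in CT26. It was therefore lower on each CT26 array than on any colon or adenoma array, while small intestine spanned nearly the whole range of the tissues. Mvk, the mevalonate kinase, read 4.5, 3.13 and 3.24 in small intestine, 4.27 and 3.9 in adjacent tissue, 4.15, 4.26 and 4.14 in adenomas, 4.64, 4.5 and 4.91 in colon, and 3.84, 5.39 and 4.81 in CT26. The CT26 arrays of Mvk straddled the colon arrays. Mvd, the decarboxylase, read 2.6, 0.73 and 0.43 in small intestine, 2.07 and 1.86 in adjacent tissue, 2.48, 2.66 and 2.38 in adenomas, 2.57, 2.09 and 2.46 in colon, and -0.038, 2.45 and 1.34 in CT26. Its lowest and one of its higher values were thus both CT26 arrays, a 5.61-fold range within that group. Idi1 read 4.1, 2.44 and 2.18 in small intestine, 3.74 and 3.54 in adjacent tissue, 4.19, 3.98 and 4.03 in adenomas, 4.1, 3.89 and 4.5 in colon, and 1.42, 3.16 and 2.05 in CT26. Like Hmgcs1, it was below every colon and adenoma array in all CT26 samples.

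The enzymes from the branch point onward gave the following signals. Fdps read 5.26, 3.56 and 3.76 in small intestine, 4.87 and 4.5 in adjacent tissue, 5.29, 5.58 and 5.47 in adenomas, 5.11, 5.46 and 5.53 in colon, and 5.4, 6.61 and 6.26 in CT26. All adenomas exceeded all small intestine and adjacent samples, and CT26 reached the highest values. Fdft1 read 3.73, 1.26 and 1.24 in small intestine, 2.73 and 2.23 in adjacent tissue, 3.23, 3.04 and 3.11 in adenomas, 3.31, 3.06 and 2.81 in colon, and 1.83, 3.19 and 2.45 in CT26. Here CT26 overlapped both colon and adenomas. Sqle read 5.13, 2.71 and 2.47 in small intestine, 4.34 and 3.76 in adjacent tissue, 4.25, 4.23 and 4.33 in adenomas, 4.75, 4.68 and 5.86 in colon, and 4.83, 5.32 and 4.9 in CT26. Its highest value was the third colon array, the one that carried enterocyte markers, and its 3 adenomas lay within 0.10 of each other. Lss read 1.43, -0.46 and -0.57 in small intestine, 1.05 and 0.86 in adjacent tissue, 1.23, 1.01 and 1.22 in adenomas, 1.34, 1.54 and 0.7 in colon, and 1.47, 2.54 and 1.83 in CT26. The CT26 arrays were all above the adenomas.

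**Figure D2:**
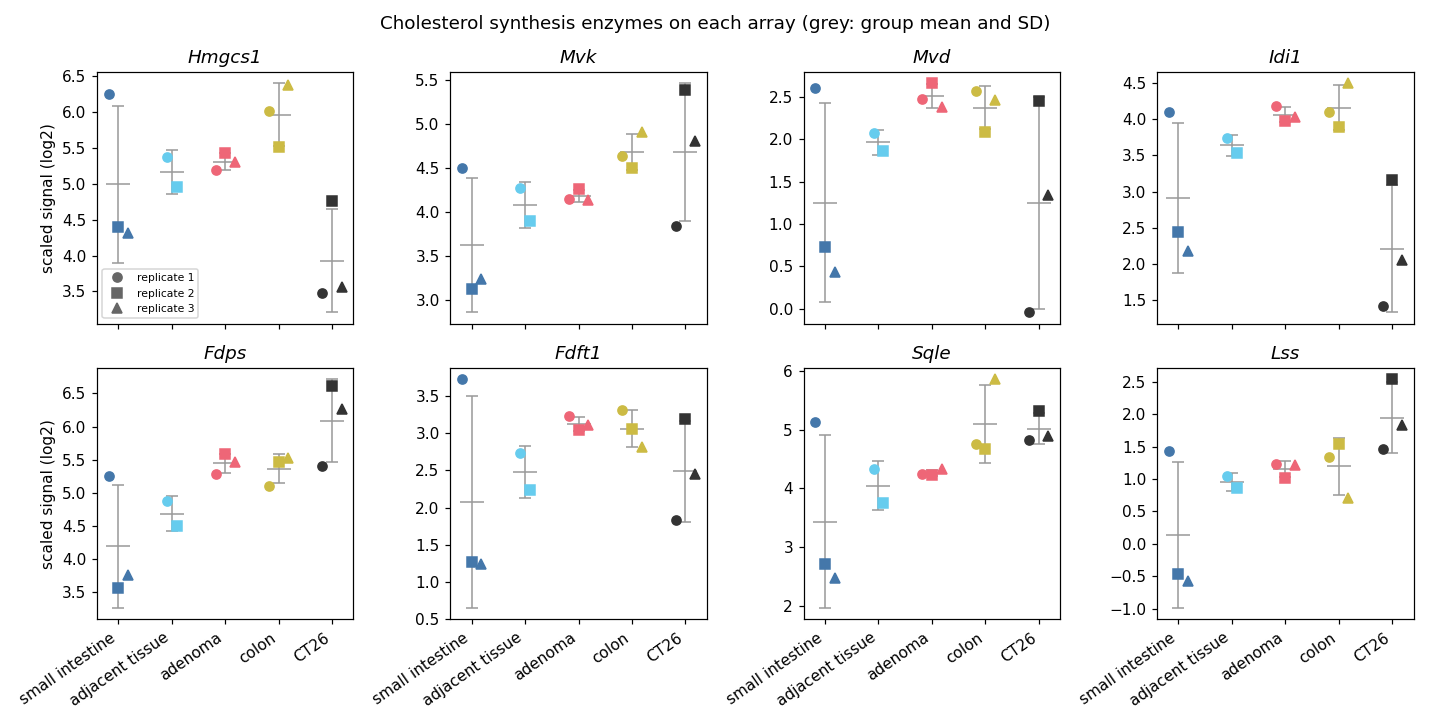
Scaled log2 signal (y axis, a separate scale for each gene) of the 8 enzymes in the 5 groups, with 1 symbol per array shaped by replicate number and the group mean and SD in grey. Small intestine replicate 1 lies above both other small intestine arrays in every panel, adenomas are tightly grouped, and CT26 falls below colon and adenoma for Hmgcs1 and Idi1 only, in all 3 arrays.

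Mean levels placed small intestine last among the tissues for all 8 enzymes. Colon was first for Hmgcs1, Mvk, Idi1 and Sqle, adenoma for Mvd and Fdft1, and CT26 for Fdps and Lss. Few neighbors in these orders were separated beyond their spread. The arrays of neighboring groups did not overlap only for colon over adenoma in Hmgcs1, colon over adjacent tissue in Mvd and Fdps, adenoma over adjacent tissue in Idi1, and CT26 over adenoma in Sqle. Such separation in either direction was common among all genes. It held for 38.8% in adenoma against colon, 57% in adenoma against adjacent tissue and 71.6% in CT26 against adenoma. For colon against adjacent tissue it was not counted. For Mvk, Fdft1 and Lss every pair of neighbors overlapped.

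Whether adenomas differed from healthy small intestine was asked first, with limma on each pair of groups. An enzyme was called when its log2 fold change reached 1.2 in size and its p, adjusted by Benjamini-Hochberg over all probes, did not exceed 0.01. All 8 enzymes had higher means in adenomas, with a median of 1.03, while all 22088 genes tested had a median of -0.15 and 44% of them were higher. None of the 8 passed both thresholds, whereas 22.4% of genes did (limma; 2 of the 8 had an unadjusted p under 0.05, as did 60% of genes). The differences ran from 0.32 (SE 0.5, adjusted p 0.616) for Hmgcs1 to 1.25 (SE 0.43, adjusted p 0.0459) for Fdps, the only enzyme whose groups did not overlap, against 65.2% of genes without overlap. For Mvd the difference was also 1.25 (SE 0.54, adjusted p 0.087) and for Idi1 it was 1.16 (SE 0.48, adjusted p 0.0778). The outcome turned on 1 sample. Without small intestine replicate 1, 6 of 8 enzymes were overexpressed in adenomas, where 13% of genes were, and the median difference was 1.72. These were Mvd with a log2 fold change of 1.92 and an adjusted p of 0.000519, Fdft1 with 1.87 and 0.000353, Fdps with 1.79 and 0.000562, Idi1 with 1.76 and 0.000569, Sqle with 1.68 and 0.000543, and Lss with 1.67 and 0.00057. Hmgcs1 at 0.95 and Mvk at 1 stayed under the fold threshold, with adjusted p of 0.00394 and 0.0028. Without small intestine replicate 3 instead, the difference of Hmgcs1 was -0.021. Replicate 1 was singled out by these same enzymes, so leaving it out lowers their small intestine means and narrows their spread by selection. The calls and p-values without it are therefore no separate support, and the share of all genes is no like comparator. The same small intestine sample had the lowest signal of the 3 for 10 of 10 enterocyte markers (median 6.59 against 8.64 and 8.81) and the highest for 9 of 10 cell division genes (median 2.31 against 1.37 and 1.01), and the part of either in the enzyme levels was not tested. Within slides, the median difference between adenoma and small intestine was 0.74 on the slide that held replicate 1 and 1.53 on the other.

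The comparison of adenomas with the tissue beside them does not involve that sample. All 8 enzymes were again higher in adenomas on average, with a median of 0.32 against -0.036 for all genes, although without adjacent tissue replicate 2 the means of Hmgcs1, Mvk and Sqle fell on the other side (-0.072, -0.089 and -0.064). None passed both thresholds, against 4.18% of genes, and 4 of 8 had an unadjusted p under 0.05, as did 38.3% of genes. The groups did not overlap for Mvd, Idi1, Fdps and Fdft1, that is for 4 of 8 enzymes, where 57% of genes did not overlap. Fdps had the largest difference, 0.76 (SE 0.19, adjusted p 0.0427), followed by Fdft1 with 0.65 (SE 0.2, adjusted p 0.0728), Mvd with 0.54 (SE 0.17, adjusted p 0.0749) and Idi1 with 0.43 (SE 0.16, adjusted p 0.112). Hmgcs1, Mvk, Sqle and Lss differed by 0.099 to 0.22. The median was 0.27 within the first slide and 0.48 within the second. Cell type markers also differed between these groups. The median difference was -1.83 over 10 enterocyte markers (2 called down, 9 lower), -1.47 over 6 smooth muscle markers (none called, 6 lower) and 0.99 over 10 cell division genes (2 called up, 10 higher), and their part in the enzyme differences was not tested. A second, dimmer probe of Fdft1 was well above background on all 3 adenomas and on neither adjacent sample. This bounds its difference at an at least 1.23-fold higher level in adenomas. The probe was tested only because the adenomas passed the filter. Its adjusted p of 0.00843 (limma) belongs to the measured means of -4.19 and -5.36, not to the bound, and is no added support.

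Adjacent tissue and healthy small intestine were not separated for any of the 8 enzymes. Each was higher on average in adjacent tissue, by a median of 0.55, although the means of Hmgcs1 and Fdft1 changed sides without small intestine replicate 2 (-0.12 and -0.0098) or 3 (-0.17 and -0.022) and when replicate numbers were blocked (-0.17 and -0.022), and that of Hmgcs1 without adjacent tissue replicate 1 (-0.044). All genes together had a median of -0.096, and 44.8% of them were higher. The SE of the 8 enzymes were 0.46 to 0.82. None of the 8 had groups free of overlap, while 52.9% of genes did. None reached an unadjusted p of 0.05, while 30.6% of genes did. In that comparison 0.00925% of genes passed, namely 2 of 21630. Without small intestine replicate 1 the median was 1.28 and still none passed (limma). That array was singled out by these same enzymes, so the higher median is no separate support.

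Colon held higher mean levels than small intestine for all 8 enzymes, with a median of 1.09 against -0.076 for all genes. None passed both thresholds and 3 of 8 had an unadjusted p under 0.05, as did 23.9% of genes, in a comparison where 0.00969% of genes, again 2, passed. The median remained at 1.09 without the third colon array and was 0.69 and 1.79 within the 2 slides. It rose to 1.75 without small intestine replicate 1, but that array was singled out by these enzymes, so the rise is no separate support. Between adenomas and colon the enzymes were balanced, 3 higher and 5 lower with a median of -0.069. None passed, against 3.7% of genes. Sqle (-0.82, SE 0.35, adjusted p 0.184), Hmgcs1 (-0.66, SE 0.26, adjusted p 0.167) and Mvk (-0.5, SE 0.19, adjusted p 0.148) were lower in adenomas with no overlap, where 38.8% of genes had none, and the other 5 differed by at most 0.13 in size.

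CT26 cells, a single cell line, were compared with whole colon. Cell type markers differed widely, with medians of -12.1 over 8 epithelium, -10.17 over 6 smooth muscle and -6.47 over 4 B cell markers. All genes of these lists were called down, while 8 of 10 cell division genes were called up (median 2.59). Their part in the enzyme differences was not tested. Underexpression in CT26 was called for 2 enzymes of the early route, and overexpression for none. Hmgcs1 was 4.1-fold lower (log2 fold change -2.04, SE 0.43, adjusted p 0.00579) and Idi1 was 3.88-fold lower (-1.95, SE 0.47, adjusted p 0.009544), both with all CT26 arrays under all colon arrays. Hence 2 of 8 enzymes were called, both down, where 37.2% of genes were called and 16.2% were called down; groups without overlap, here these same 2 enzymes, made up 63.4% of genes. Mvd had a mean 1.13 lower (SE 0.59, adjusted p 0.149) and Fdft1 one 0.57 lower (SE 0.4, adjusted p 0.266). Mvk (-0.0038, SE 0.43) and Sqle (-0.081, SE 0.39) had nearly equal means. Fdps (0.72, SE 0.38, adjusted p 0.145) and Lss (0.75, SE 0.39, adjusted p 0.142) had higher means in CT26. The median over the 8 was -0.33, while that of all genes was 0.32, and it was -0.72 in the authors' normalized table and -0.82 after quantile normalization. On the separate slides Hmgcs1 differed by -1.99 and -1.44, Idi1 by -2.15 and -1.14, and the median over the enzymes by -0.55 and 0.072, so its sign was not the same on both. Neither call held without CT26 replicate 1 or 3 or without colon replicate 1 or 3 (0 enzymes called each time), and Hmgcs1 alone held without colon replicate 2. With the slide as a block Hmgcs1 was called (-1.72, adjusted p 0.00684) and Idi1 was not (-1.65, adjusted p 0.016), and neither was when replicate numbers were blocked (adjusted p 0.0171 and 0.0179).

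Against adenomas, CT26 cells underexpressed Idi1 3.62-fold (log2 fold change -1.85, SE 0.41, adjusted p 0.00518). Hmgcs1 was 2.6-fold lower (-1.38, SE 0.35) with an adjusted p of 0.01005, just over the threshold. One enzyme of 8 was thus called, down, where 41.9% of genes were called and 20% were called down. Sqle (0.74, SE 0.21, adjusted p 0.0153) and Lss (0.79, SE 0.29, adjusted p 0.0454) were higher on all CT26 arrays than on any adenoma, under the fold threshold, so that 4 of 8 enzymes had no overlap, 2 in each direction, against 71.6% of genes. Mvd (-1.25, SE 0.56, adjusted p 0.0823), Fdft1 (-0.63, SE 0.34), Mvk (0.5, SE 0.37) and Fdps (0.64, SE 0.32) overlapped. The median was -0.068 with 4 enzymes on either side, and it was -0.42 and 0.59 within the slides. In the authors' table and after quantile normalization Mvk changed sides, leaving 3 higher and 5 lower, with medians of -0.54 and -0.55. On the first slide Idi1 differed by -2.37 and on the second by -0.82. The call of Idi1 was lost without CT26 replicate 3 or without any 1 of the adenomas (0 enzymes called), and without CT26 replicate 2, 3 of 8 enzymes were called, where 41.7% of genes were. The dimmer Fdft1 probe was called in this comparison while the main one was not (-0.63, adjusted p 0.138). It was below background on every CT26 array, which bounds its difference at an at least 1.77-fold higher level in adenomas. Here too the probe was tested only because the adenomas passed the filter. Its adjusted p of 0.000885 (limma) belongs to the measured means of -5.53 and -4.19, not to the bound, and is no added support. The second probe of Mvk gave no call in any comparison, as did the first, and read 0.13 where the first read -0.0038 in CT26 against colon.

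**Figure D3:**
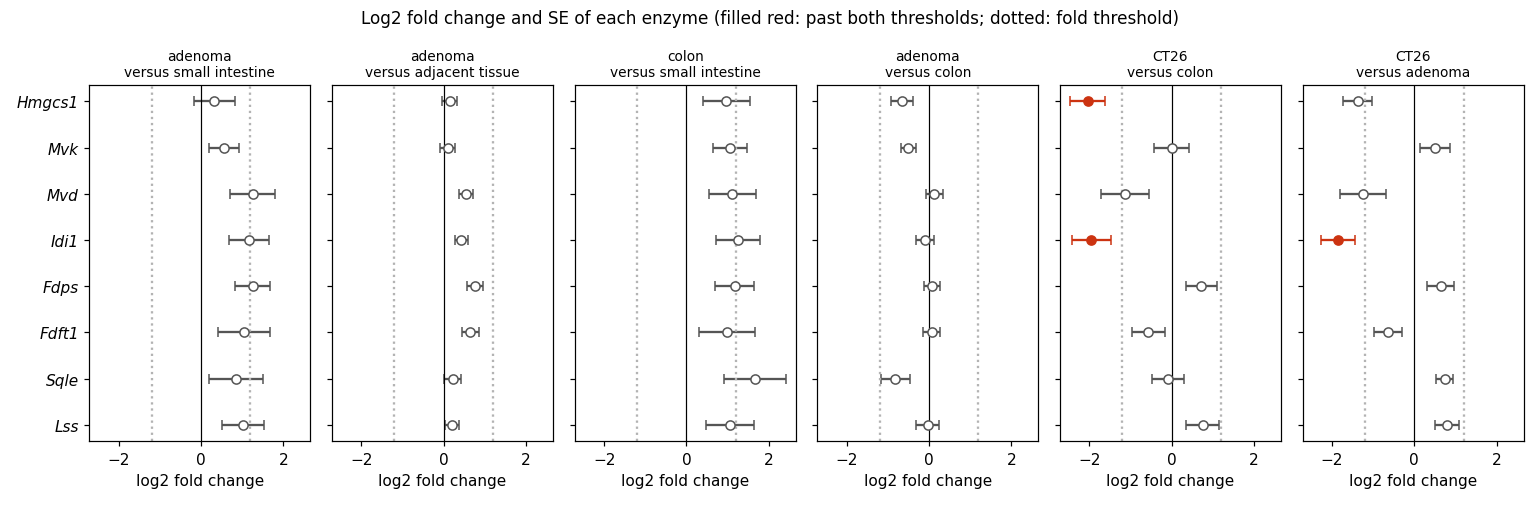
Log2 fold change (x axis, first group minus second) with its SE for the 8 enzymes in 6 comparisons, in the order of the pathway from top to bottom. Filled red points passed both thresholds, namely Hmgcs1 and Idi1 in CT26 against colon and Idi1 in CT26 against adenoma, and the dotted lines mark the fold threshold of 1.2.

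The tumor effect was then set against itself in both settings, as CT26 minus colon less adenoma minus small intestine. For Idi1 the 2 effects were -1.95 and 1.16, and their difference of -3.11 (SE 0.73) passed the threshold with an adjusted p of 0.00493. Hmgcs1 (-2.35, SE 0.72, adjusted p 0.0204) and Mvd (-2.37, SE 0.88, adjusted p 0.0472) did not pass. The other 5 differences ran from -1.61 for Fdft1 to -0.27 for Lss, all negative and none past it. One enzyme of 8 therefore passed, where 31.3% of 23423 genes did. Without small intestine replicate 1, 4 of 8 passed, where 27.5% of genes did, but that array was singled out by these enzymes, so this count is no separate support. The call of Idi1 was lost without small intestine replicate 2 or 3, any 1 adenoma, colon replicate 1, or CT26 replicate 1 or 3, with adjusted p from 0.01009 to 0.0146.

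The remaining enzymes of sterol synthesis were read from a list of 13 genes. In CT26 against colon, 1 was up and 3 were down, with a median of -1.22. Of all genes, 37.2% were called in that comparison, and 16.2% were called down. Tm7sf2 and Hsd17b7 were among those that fell, and the one that rose was Lbr. Tm7sf2 and Lbr both encode sterol C14 reductases. Tm7sf2 fell by 2.43 in CT26 against colon (SE 0.58, adjusted p 0.009882) and by 2.87 against adenoma (SE 0.43, adjusted p 0.000724), whereas Lbr, which is also a protein of the inner nuclear membrane, was 1.43 higher against colon (SE 0.33, adjusted p 0.00827). Hsd17b7, a 3-ketosteroid reductase of the route, fell by 2.38 against colon (SE 0.53, adjusted p 0.00691) and by 2.26 against adenoma (SE 0.34, adjusted p 0.000673). On the 3 colon arrays Tm7sf2 read 3.21, 3.24 and 4.75, and Hsd17b7 read 0.12, 0.02 and 1.59. Both were highest on the third, which carried enterocyte markers. In CT26 against adenoma 1 of the 13 was up and 5 were down, with a median of -0.54, and Acat2, which makes acetoacetyl-CoA for Hmgcs1, was among the latter (-1.48, SE 0.36, adjusted p 0.00813). There 41.9% of all genes were called, and 20% were called down. None of the 13 was called between adenoma and small intestine, adjacent tissue or colon, where 22.4%, 4.18% and 3.7% of all genes were. An unadjusted p under 0.05 (limma) was found for 2, 3 and 2 of them, and for 60%, 38.3% and 29.2% of all genes.

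The branch enzymes that draw on farnesyl diphosphate, 10 genes for ubiquinone, dolichol and protein prenylation, had few calls. One was up in CT26 against colon and 2 in CT26 against adenoma, where 21% and 21.9% of all genes were called up. None was down, and the medians were 0.26 and 0.25. Fnta, a subunit of protein farnesyltransferase, rose by 1.2 (SE 0.24, adjusted p 0.0029) against adenoma. Of the 7 genes of the sterol-sensing system itself, 1 was called in all these comparisons together, Insig2, which retains the sensor in the endoplasmic reticulum and fell by 1.54 in adenomas against small intestine (SE 0.25, adjusted p 0.00267). In that comparison 22.4% of all genes were called. Srebf2 had means 0.78 higher in CT26 than in colon (SE 0.27, adjusted p 0.0424) and 0.52 higher than in adenomas (SE 0.2, adjusted p 0.0537), neither past the thresholds.

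Calls were also made among genes of uptake and efflux. In CT26 against colon, where 37.2% of all genes were called, 7 of 8 uptake genes could be tested. Of these 2 were down, among them Stard4, a sterol carrier (-2.23, SE 0.53, adjusted p 0.00928), while Scarb1, the receptor for high-density lipoprotein, was up (3.32, SE 0.8, adjusted p 0.009838). On the 3 colon arrays Stard4 read 3.7, 3.33 and 4.67, and Scarb1 read 0.69, 1.19 and -2.09. The third array, which carried enterocyte markers, was thus the highest for Stard4 and the lowest for Scarb1. Npc1l1, the luminal cholesterol transporter, fell by 4.53 in adenomas against small intestine (SE 0.29, adjusted p 0.000106) and by 2.75 against adjacent tissue (SE 0.27, adjusted p 0.00534). Of 8 genes of efflux and storage, 4 fell and 2 rose in adenomas against small intestine, where 22.4% of all genes were called. The 2 that rose were Soat1, which esterifies cholesterol (2.36, SE 0.2, adjusted p 0.000229), and the transporter Abcg1 (1.76, SE 0.17, adjusted p 0.000367). Soat2, which esterifies cholesterol in enterocytes, fell by 3.49 (SE 0.37, adjusted p 0.000494), and the half-transporters Abcg5 and Abcg8 and the sterol receptor Nr1h3 fell by 3.11, 3.07 and 2.57 (SE 0.37, 0.42 and 0.2, adjusted p 0.000807, 0.00129 and 0.000165). Beside these, enterocyte markers had a median of 5.15 to 5.98 in adenomas and 6.59 to 8.81 in small intestine, with 7 of 10 called down, and their part in the fall of the transporters was not tested. All 8 synthesis enzymes had higher means in adenomas, but none was called. Of the 13 other sterol enzymes 8 were higher and 5 lower, with a median of 0.083. In CT26 against colon, where 16.2% of all genes were called down and 21% up, 3 of 7 efflux and storage genes tested fell and none rose. Among them Nr1h3 fell by 6.22 (SE 0.87, adjusted p 0.000779). Abcg5, below background on all CT26 arrays, had a colon mean at least 168-fold higher. The adjusted p of 0.0023 for Abcg5 (limma) belongs to its measured means, not to this bound. On the 3 colon arrays Abcg5 read 1.44, -0.71 and 5.62, and Nr1h3 read 2.61, 1.46 and 4.33. Both were highest on the third, which carried enterocyte markers, so their colon means depend on it.

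**Figure D4:**
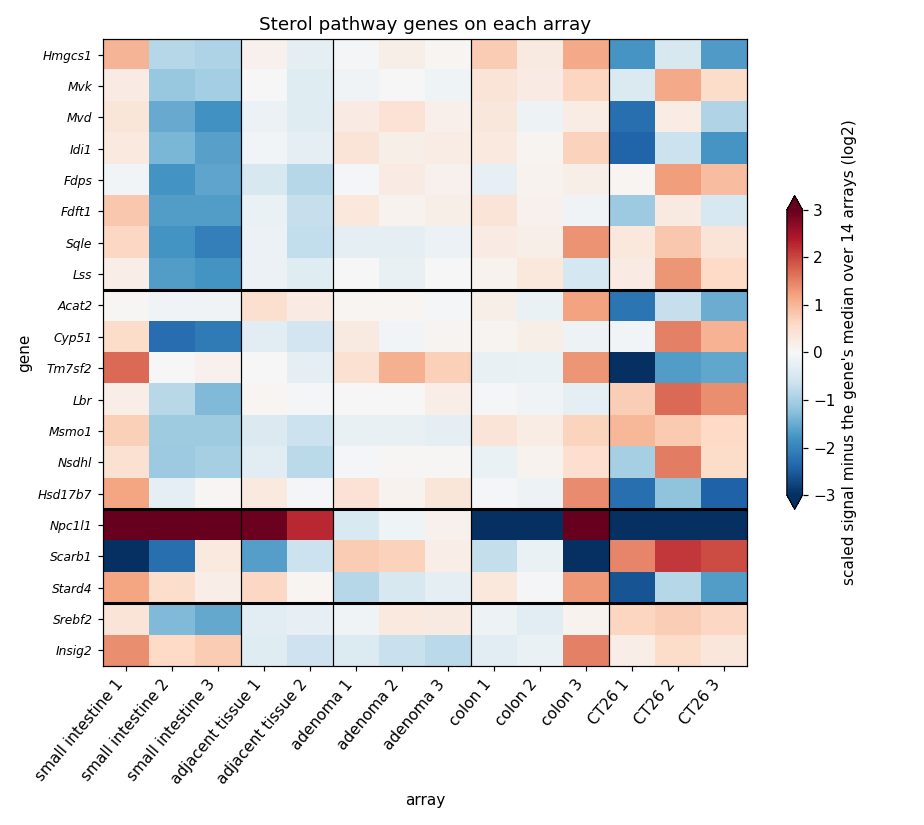
Scaled log2 signal of each gene minus its own median over the 14 arrays (color, limited to 3 in either direction), with genes in rows and arrays in columns. From top to bottom the blocks hold the 8 enzymes and, of the other lists, only genes named in the text, 7 sterol enzymes, 3 uptake genes and 2 regulators. Small intestine replicates 2 and 3 are low for all 8 enzymes, and Tm7sf2 and Hsd17b7 are below their medians on all CT26 arrays.

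The within-group order of the 8 enzymes extended to part of these lists. Small intestine replicate 1 was the highest of its group for 12 of the 13 other sterol enzymes, 6 of 10 branch enzymes, 6 of 7 regulators, 5 of 8 uptake genes and 1 of 8 efflux genes. Of all 16028 genes, 35.3% were highest on that array, and 0.742% with a gap of at least 1.2. The gap was at least 1.2 for 4 of the other sterol enzymes, Cyp51, Tm7sf2, Msmo1 and Nsdhl, and for Srebf2 among the regulators. These genes are named here because of these values. A gap of that size was also found for 2 of 8 uptake genes, and for 0 branch enzymes and 0 efflux genes. Cyp51, the lanosterol demethylase, read 1.11, -1.73 and -1.56 in small intestine. Srebf2 read 1.62, -0.096 and -0.31. That both were low on the same 2 arrays as the 8 enzymes follows from the gap by which they were named. In CT26, replicate 2 was the highest for 10 of 13 and replicate 1 the lowest for 9 of 13 of the other sterol enzymes, against 30.2% and 30.7% of all 16028 genes.

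Likeness to the mean profile of the 8 enzymes was measured as the root mean square difference over the 14 arrays between profiles centered on their own means. Of 16020 genes that are not among the 8, the closest included Plekhg5 (0.337), Bicd1 (0.359), Cdk19 (0.377), Idh2 (0.393) and Fam86 (0.399), where the median gene stood at 0.936. The enzymes themselves stood between 0.224 for Fdft1 and 0.631 for Hmgcs1, so Hmgcs1 was farther from the mean of its own group of genes than any of these 5. Each enzyme is part of the mean it was measured against, which draws its value down. The values of the enzymes and of other genes are therefore not on equal terms. The measure describes these 14 arrays, which share the groups and slides given above.

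The probes were located by the array annotation (NCBI37/mm9). That of Hmgcs1 was placed on the unplaced contig 13_random at 114793 to 114852 on the minus strand, Idi1 at chr13:8891524-8891583, Mvk at chr5:114910540-114910599 and Sqle at chr15:59162688-59162747 on the plus strand, and Lss at chr10:76015992-76016051 on the plus strand. Mvd lay at chr8:124957750-124957809, Fdps at chr3:88897549-88897608, and the main probe of Fdft1 between 63765750 and 63769990 of chromosome 14, a span longer than the 60-base probe, all on the minus strand.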

How the data were processed

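Total RNA was labeled with Cy3 and hybridized to 14 one-color SurePrint G3 Mouse 8x60K arrays. The authors deposited scanner files (Feature Extraction 10.7.3.1) in which each spot has an intensity after background subtraction and spatial detrending, not yet normalized between arrays. The deposited table of log2 values was normalized by the authors between arrays in a way not given in the sources used here, and it served as an alternative. Its columns of fold changes and p-values for the authors' own comparisons and 28 further per-sample columns of flags and detection were not used.

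From the intensity, control spots and outliers were left out, spots of a probe were averaged, and log2 values were set relative to their array's 75th percentile. A probe was tested if all arrays of either group (or, for the difference between tumor effects, of any of its groups) measured it well above background. limma 3.58.1 (R 4.3.3) was fitted to each pair of groups on its own arrays (lmFit, eBayes), with Benjamini-Hochberg adjustment over all probes and the study's thresholds of 1.2 for the log2 fold change and 0.01 for the adjusted p. The difference between tumor effects was an interaction contrast with the threshold on p alone. A gene was read from its brightest probe. The number of arrays limits the precision. Scripts were tested on simulated data. Below background on all arrays of a group, a level was bounded by the lowest signal among probes well above background on each array. All 8 enzymes were named, and from other lists at most 4 called genes per comparison. The enzymes, lists and tests were chosen with earlier results of these data known. The alternatives were other scalings, filters, fits, blocks and thresholds, and leaving out each array in turn. Same-numbered samples did not deviate together throughout, by the replicate numbers or by those in the sample titles, so numbers were not treated as pairs. Some genes of the lists are counted but not reported here by name.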

Additional observations from a re-analysis of the deposited data

Results flagged for a closer look

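The difference between the tumor effects, CT26 minus colon less adenoma minus small intestine, passed the threshold for 1 of the 8 enzymes, Idi1, at -3.11 on the log2 scale (SE 0.73, adjusted p 0.00493, limma). The test of the difference itself drew attention to it. Idi1 was lower on all 3 CT26 arrays than on all 3 colon arrays, and the adenoma arrays overlapped the small intestine arrays only through small intestine replicate 1. Whether that replicate lies outside the spread of its group was not tested.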

How the results depend on the processing

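Over 27 alternatives to the main setting, 1109 values of single enzymes kept their direction and their side of the threshold, 25 newly passed it, 27 no longer passed and 31 changed sign. Of the counts and medians over the 8 enzymes, 39 moved. The enzymes called between CT26 and adenoma were 2 rather than 1 at an adjusted p of 0.05, with any probe of the gene, in the authors' table, with the filter on both groups, with an intensity trend, after normexp or quantile normalization, and with the slide as a block, and 0 to 3 when 1 array was left out. Those between CT26 and colon were 0 rather than 2 without the filter on dim probes, 1 with the slide as a block, and 0 to 2 with 1 array left out. Between adenoma and small intestine 1 rather than 0 passed at an adjusted p of 0.05, and 0 to 6 with 1 array left out. The difference between tumor effects was called for 3 enzymes at 0.05, for 2 in the authors' table, for 2 after quantile normalization, and for 0 to 4 with 1 array left out. The median of CT26 against adenoma moved from -0.068 to -0.55 after quantile normalization, and that of adenoma against adjacent tissue ran from 0.22 to 0.51 with 1 array left out. The median of all probes in CT26 against colon was 0.37 in the main setting and 0.12 after normexp, and in CT26 against adenoma 0.37 and 0.22. The causes were not tested.

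With the replicate number as a block, 0 enzymes were called between CT26 and colon, 2 between CT26 and adenoma, and 0 for the difference between tumor effects (Idi1 adjusted p 0.0113), and the means of Fdft1 (-0.022) and Hmgcs1 (-0.17) in adjacent tissue against small intestine changed sign. Deviations of same-numbered samples correlated at -0.00999 and -0.0356 in adenoma against adjacent tissue and at 0.291 and 0.141 in adjacent tissue against small intestine, and no comparison had 3 or more pairs all over 0.1. The sample titles number the adjacent pieces 2 and 3. By these numbers, an alternative chosen after seeing the data, the correlations were 0.0356 and 0.0257 against adenoma and -0.141 and 0.207 against small intestine, and the block gave medians of 0.3 and 1.28 with 0 enzymes called in both comparisons.

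The other sign changes concerned differences that were not called. In adenoma against colon, Fdft1 read -0.093 with all probes averaged and -0.065 to 0.19 with 1 array left out, and Lss read 0.01 after normexp and -0.29 to 0.14 with 1 array left out. There Fdps ran from -0.049 to 0.16, Idi1 from -0.24 to 0.07 and Mvd from -0.013 to 0.23. Mvk read -0.07 in the authors' table and -0.03 after quantile normalization in CT26 against adenoma. In CT26 against colon it read 0.063 with all probes, 0.22 with the slide block and -0.36 to 0.42 with 1 array left out, and Sqle read 0.099 with the slide block and -0.29 to 0.3. With 1 array left out, adenoma against adjacent tissue ran from -0.072 to 0.36 for Hmgcs1, -0.089 to 0.29 for Mvk and -0.064 to 0.51 for Sqle, Hmgcs1 ran from -0.021 to 0.95 in adenoma against small intestine and from -0.17 to 0.81 in adjacent tissue against small intestine, Fdft1 ran from -0.022 to 1.22 in the latter, and the difference between tumor effects of Lss ran from -0.92 to 0.083. Signal over background did not limit the main probes, which were well above it on every array.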
